A study of Mus musculus with 6 samples.

Results

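The genes described here are 47 genes of DNA replication and S phase, the part of the cell cycle in which the genome is copied. They were found by symbol in the deposited gene table, where all 47 were present among 16763 genes, and all 47 passed the filter on low counts, as did 12891 genes in all. The members were chosen by function, with their read counts in these 6 libraries and the group differences in them already known, so those differences are given as a description and carry no test of their own. RNA came from tumors that had been raised in BALB/c mice with 4T1, a carcinoma cell line from a BALB/c mammary tumor. The model group had such tumors and no DMDD liposome, and the other group had such tumors and was given DMDD liposome, a compound carried in lipid vesicles that the labels name by its abbreviation alone. Each group had 3 libraries, and the labels give neither dose, time, age nor the animal behind each library, so the spread between libraries may be technical. The labels give the sex as male for every sample, and some label text speaks of rats although organism and strain are those of a mouse.

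Origins of replication are licensed in G1, when the origin recognition complex with Cdc6 and Cdt1 loads the Mcm2 to Mcm7 helicase ring onto DNA. In S phase Cdc45 and the GINS complex join the ring to make the active helicase, primase and DNA polymerase alpha lay down primers, and polymerases delta and epsilon extend them on the sliding clamp Pcna. Many of these genes are targets of E2F transcription factors, so their transcripts are known to rise together as cells enter the cycle, and in bulk tumor RNA they are widely read as markers of proliferation.

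The libraries held 13037500 to 15616840 counts each, and the least abundant member still had 72 counts in its lowest library. Model replicate 1 had the smallest total, and model replicates 2 and 3 the largest, 15484929 and 15616840. Levels are given as CPM, a gene's count relative to its library's total after scaling by the trimmed mean of M-values, or as the deposited FPKM, which also divides by gene length. The epithelial markers expected of a carcinoma were present in every library, with 5637 to 17153 counts of the adhesion gene Epcam. Model replicate 2 also carried skin keratinocyte transcripts, with 1919 counts of the basal keratin Krt5 against at most 2 in the other libraries. Some treated libraries had higher sums of skeletal muscle or fat cell markers, given below. In bulk RNA, fewer cycling cells and less of these RNAs per cell cannot be told apart.

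The replication genes moved as a block between libraries, and the largest contrast lay inside the model group. Summed over the 47 genes, the level was 2188 CPM in model replicate 1, 3661 CPM in model replicate 2 and 3560 CPM in model replicate 3. The same sum was 2805, 2813 and 2576 CPM in DMDD liposome replicates 1 to 3. The treated libraries lay between the lowest and the other model libraries. Gene by gene, model replicate 1 was below and model replicates 2 and 3 were above every DMDD liposome library for 40 of the 47 members, a pattern that was looked for after the values had been seen and that 4.96% of all tested genes shared. Model replicate 1 was the lowest of the 6 libraries for 43 members (16.7% of all tested genes). Model replicate 2 was the highest for 33 (19.6% of all tested genes) and model replicate 3 for 13 (19.3%).

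**Figure D1:**
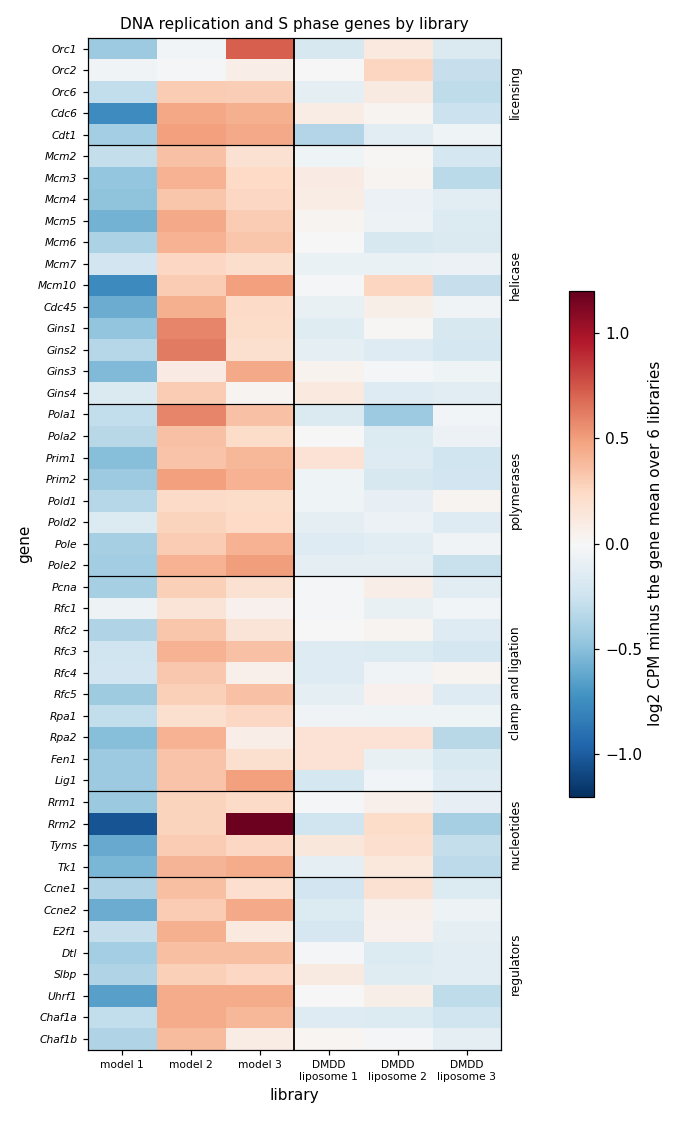
Each row is 1 of the 47 genes, ordered by role, and each column 1 library, with the color giving log2 CPM minus that gene's mean over the 6 libraries. The column of model replicate 1 is blue for nearly every gene, those of model replicates 2 and 3 are red, and the 3 DMDD liposome columns are pale, with Rrm2 the most deeply colored row.

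The difference between group means was small beside this spread. The log2 fold change of DMDD liposome over model was below 0 for 47 of 47 members (45 when libraries were scaled by total counts alone), against 48.8% of all tested genes, and its median was -0.18 (0.01 over all tested genes). It ran from -0.51 for Rrm2 to 0.00 for Orc2. For 46 members the difference of the group means was smaller than the SD of the model group, Rfc3 being the exception. The same held for 63.0% of all tested genes. The groups overlapped for all 47 members, so 0 were separated, against 12.9% of all tested genes. The SD in CPM was larger in the model group than in the DMDD liposome group for 46 members (59.0% of all tested genes). The median ratio of the SDs was 3.97, against 1.23 over all tested genes. edgeR's quasi-likelihood test with Benjamini-Hochberg adjustment over all tested genes called 0 of the 47 members, and 0% of all tested genes. At an unadjusted p under 0.05 edgeR found 0 members (7.65% of all tested genes). DESeq2 called 0 members (0.408% of the genes to which it gave an adjusted p), and the authors' deposited table called 0 (0.346% of its genes). Nothing is read from these counts, because the list was chosen with this contrast in view.

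The size of the group difference depended on which model library was left out. Without model replicate 1 the median log2 fold change was -0.39, all 47 members were below 0 (48.5% of all genes in that fit), and 43 members were lower in every DMDD liposome library than in both remaining model libraries, as were 16.5% of all tested genes. The fit without model replicate 1 placed 33 members lower at an unadjusted p under 0.05 (7.59% of all genes it tested) but called 0 after adjustment (0.851% of genes in either direction). Without model replicate 2 the median was -0.06 with 34 members below 0 (49.1% of all genes in that fit), and without model replicate 3 it was -0.11 with 39 below 0 (49.6%). The median stayed between -0.23 and -0.14 without any 1 of the DMDD liposome libraries.

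**Figure D2:**
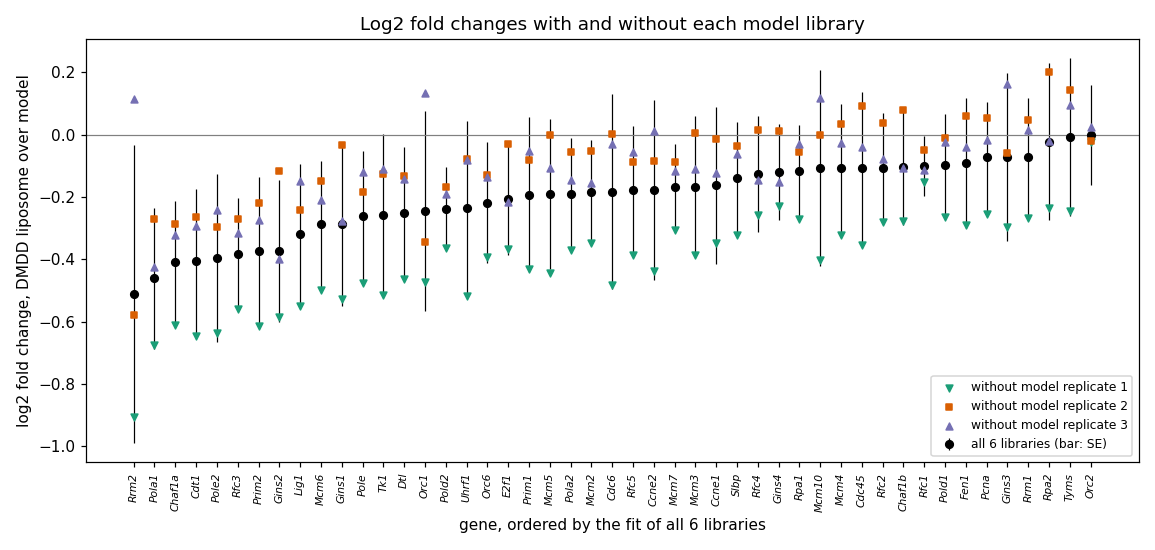
The y axis is the log2 fold change of DMDD liposome over model for each of the 47 genes on the x axis, with black points and SE bars for all 6 libraries and colored symbols for the fits without each model library. All 47 black points are below 0, the symbols without model replicate 1 lie lowest, with a median of -0.39, and those without model replicates 2 and 3 lie near 0 for many genes.

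The 12 helicase and activator genes summed to 769, 1317 and 1207 CPM in model and to 1014, 968 and 898 CPM in DMDD liposome. Mcm6, a subunit of the ring, measured 166, 288 and 272 CPM in the model libraries, replicates 1 to 3 in order, and 214, 189 and 191 CPM in the DMDD liposome libraries, with a log2 fold change of -0.29 ± 0.20 (SE). Mcm7 measured 132, 184 and 179 CPM against 147, 147 and 148 CPM, a log2 fold change of -0.17 ± 0.14. For both genes the treated libraries were close to each other and stood above model replicate 1 and below the other model libraries. Mcm2 was at 93.4, 145 and 129 CPM in model and at 110, 115 and 98.5 CPM in DMDD liposome. Mcm3 was at 100, 184 and 163 CPM against 147, 141 and 110 CPM, and Mcm5 at 85.4, 173 and 156 CPM against 129, 121 and 113 CPM. Mcm4 was at 78.7, 139 and 131 CPM against 117, 105 and 101 CPM. All 6 ring subunits thus had the same order of model libraries, with log2 fold changes between -0.29 and -0.11. Per gene length the ring subunits were near each other, with mean FPKM from 31.2 for Mcm4 to 52.6 for Mcm7, a 1.69-fold range.

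The helicase activators were less abundant and more uneven. Gins2, 1 of the 4 GINS subunits, measured 25.3, 49.5 and 36.5 CPM in model and 29.6, 28.8 and 27.6 CPM in DMDD liposome, for a log2 fold change of -0.37 ± 0.23. Model replicate 1 was just below the treated libraries here and model replicate 2 stood highest. Per length the GINS subunits spanned a 10.1-fold range, from 3.27 FPKM for Gins3 to 33.0 FPKM for Gins4. FPKM depends on the gene length used, which for Gins2 was 3900 bases and for Gins4 1349 bases. Cdc45, which bridges the ring and GINS, and Mcm10, a factor for helicase activation, had log2 fold changes of -0.11 each, and Mcm10 spread 2.40-fold between its highest and lowest libraries.

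**Figure D3:**
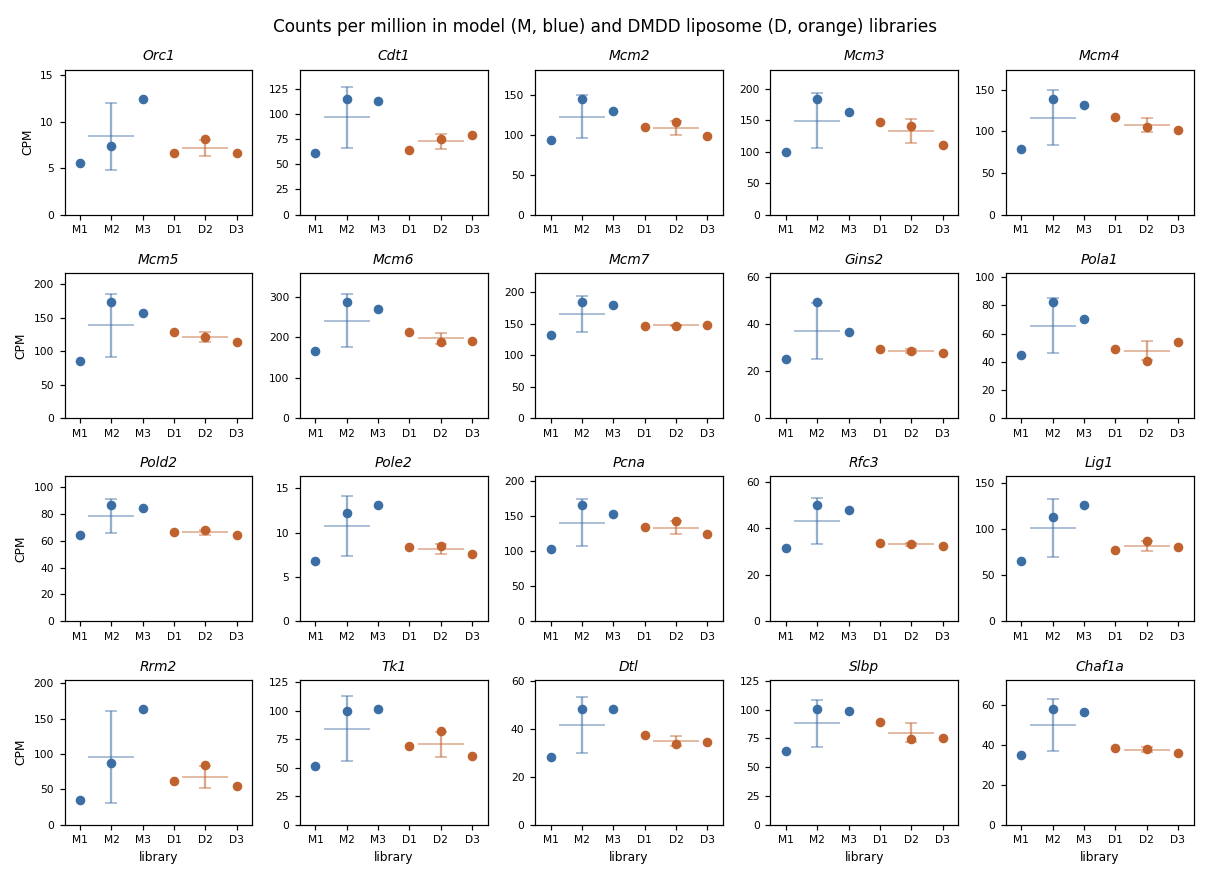
Each panel gives CPM on a y axis from 0 for 1 gene in model libraries M1 to M3 (blue) and DMDD liposome libraries D1 to D3 (orange), with the group mean and SD (n = 3) as a bar. In nearly every panel M1 is the lowest point and M2 or M3 the highest, as for Mcm6 at 166, 288 and 272 CPM.

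Among the licensing loaders, Cdt1, which brings the ring to origins and is destroyed in S phase, was the most abundant per length at 38.5 FPKM. It measured 61.6, 115 and 112 CPM in model and 64.3, 75.0 and 78.9 CPM in DMDD liposome, for a log2 fold change of -0.41 ± 0.23. Orc1, the origin recognition subunit that is itself cell cycle regulated, measured 5.52, 7.35 and 12.5 CPM against 6.58, 8.15 and 6.67 CPM (-0.25 ± 0.32). Model replicate 3 alone stood high for Orc1, and without it the log2 fold change was 0.13. Orc2, a core subunit of the same complex, differed from most members in that its model libraries were close together, at 22.2, 22.6 and 24.1 CPM, with 22.8, 27.2 and 18.9 CPM in DMDD liposome. Cdc6, the loading ATPase, spread 2.34-fold over the libraries with a log2 fold change of -0.18, and Orc6 1.52-fold with -0.22.

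The replicative polymerases and primase had the lowest median log2 fold change of the 6 role groups, -0.25 over 8 genes. Pola1, the catalytic subunit of polymerase alpha, measured 44.7, 82.5 and 70.1 CPM in model and 48.8, 40.7 and 53.9 CPM in DMDD liposome, for a log2 fold change of -0.46 ± 0.23. DMDD liposome replicate 2 was the lowest library for Pola1, below model replicate 1. Pole2, an accessory subunit of polymerase epsilon, was at 6.82, 12.2 and 13.1 CPM against 8.42, 8.45 and 7.56 CPM (-0.40 ± 0.27). Pold2, an accessory subunit of polymerase delta, was at 64.0, 86.3 and 84.6 CPM against 66.6, 68.2 and 64.6 CPM (-0.24 ± 0.13). For Pole2 and Pold2 the treated libraries lay close above model replicate 1. The primase subunits Prim1 and Prim2 had log2 fold changes of -0.19 and -0.37, Pola2 one of -0.19, Pold1 -0.10 and Pole, the catalytic subunit of polymerase epsilon, -0.26. Per length Pole, at 4.81 FPKM, was as low as its partner Pole2, at 5.51 FPKM, while Pold1 and Pold2 stood at 19.1 and 43.9 FPKM.

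Pcna, the sliding clamp, had the highest level per length of all members, 90.1 FPKM. It measured 103, 165 and 153 CPM in model and 134, 143 and 124 CPM in DMDD liposome, for a log2 fold change of -0.07 ± 0.18. Pcna has annotated pseudogenes that could share its reads. Rfc3, a subunit of the loader that opens the clamp, measured 31.6, 49.8 and 47.6 CPM against 33.6, 33.2 and 32.3 CPM, a log2 fold change of -0.38 ± 0.18. Lig1, which seals Okazaki fragments, was at 66.0, 113 and 126 CPM against 77.0, 87.5 and 80.5 CPM (-0.32 ± 0.22). The other loader subunits were closer to 0, at -0.10 for Rfc1, -0.11 for Rfc2, -0.13 for Rfc4 and -0.18 for Rfc5. Rfc1, the large subunit, was the steadiest of the 47 genes, with a 1.19-fold range over the libraries. The single-strand binding genes Rpa1 and Rpa2 stood at -0.12 and -0.02, and Fen1, the flap nuclease of Okazaki fragments, at -0.09.

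Among the nucleotide supply genes Rrm2 had the widest spread, while Tk1 and Tyms ranged 1.99-fold and 1.89-fold over the libraries. Rrm2, the small subunit of ribonucleotide reductase whose level rises in S phase, measured 35.4, 87.5 and 164 CPM in model and 61.6, 84.8 and 55.2 CPM in DMDD liposome. Its range was 4.64-fold, the largest of the 47, and its log2 fold change of -0.51 ± 0.48 went to 0.11 without model replicate 3. Its partner Rrm1, the large subunit, ranged 1.65-fold, so that the FPKM ratio of Rrm2 to Rrm1 was 0.746, 1.12 and 2.16 in the 3 model libraries, against 0.960, 1.26 and 0.915 in the treated ones. Tk1, the S phase thymidine kinase, measured 51.3, 99.5 and 102 CPM against 69.5, 81.9 and 60.3 CPM (-0.26 ± 0.26). Tyms, which makes thymidylate and also has an annotated pseudogene, had a log2 fold change of -0.01.

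Regulators and chromatin assembly genes had the same order of libraries. Chaf1a, the large subunit of the CAF-1 histone chaperone, measured 34.8, 58.2 and 56.4 CPM in model and 38.4, 38.1 and 36.2 CPM in DMDD liposome, for a log2 fold change of -0.41 ± 0.20. Dtl, the adaptor that targets Cdt1 for destruction, was at 28.2, 48.3 and 48.2 CPM against 37.2, 33.4 and 34.3 CPM (-0.25 ± 0.21). Slbp, which binds the stem-loop of histone mRNAs, was at 64.4, 101 and 98.6 CPM against 89.2, 74.7 and 75.7 CPM (-0.14 ± 0.18). In each of these genes the treated libraries lay between model replicate 1 and the other model libraries. E2f1 stood at -0.21, the cyclin E genes Ccne1 and Ccne2 at -0.16 and -0.18, Uhrf1, which carries DNA methylation through replication, at -0.24 and Chaf1b at -0.10.

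**Figure D4:**
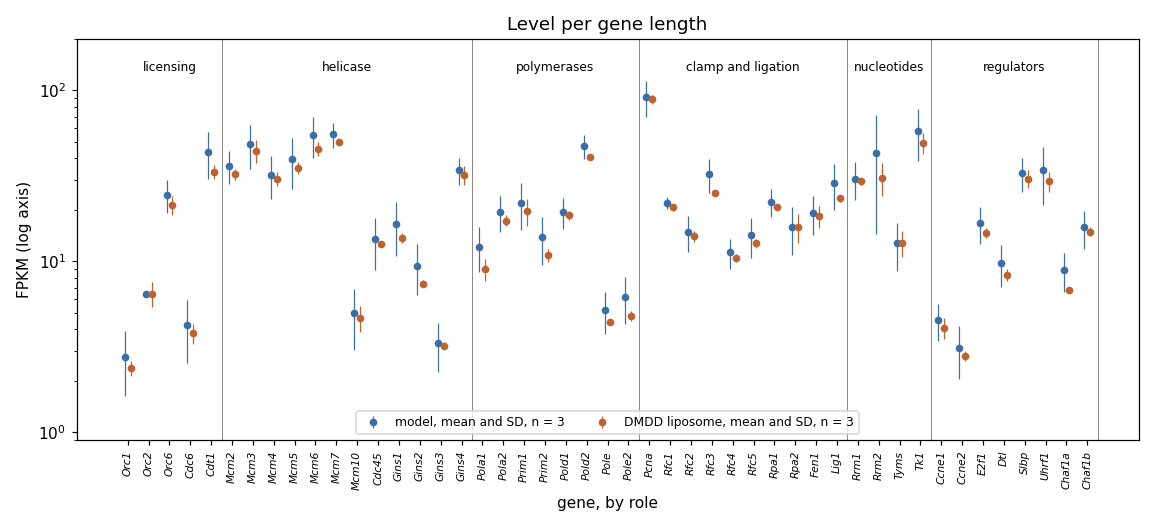
Points give the mean FPKM, the deposited count per gene length and library size, on a log axis for each gene by role, with SD over 3 libraries for model (blue) and DMDD liposome (orange). Levels run from 2.58 FPKM for Orc1 to 90.1 FPKM for Pcna, and the blue bars are longer than the orange ones for nearly every gene.

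Of the 7 members outside the common order, Orc1, Orc2, Orc6, Gins4, Pola1, Rfc1 and Rpa2, 3 encode subunits of the origin recognition complex. These genes are named because they were the exceptions, after their values were seen. Orc6 missed the order only because DMDD liposome replicate 3, at 29.28 CPM, lay just below model replicate 1, at 29.34 CPM. Gins4 measured 39.1, 54.7 and 45.1 CPM in model and 48.0, 39.6 and 40.2 CPM in DMDD liposome, and Rpa2 19.8, 37.6 and 29.7 CPM against 31.8, 31.8 and 22.3 CPM. Within the DMDD liposome group, replicate 3 was the lowest of the 3 libraries for 29 of the 47 members.

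The promoters of these genes were searched for the short motif that E2F factors are known to bind. RefSeq promoter sequences of build GRCm38.p6, from 250 bases before to 50 after each annotated start, were matched by symbol for 39 of the 47 members. They were searched on both strands for TTTCCCGC, TTTGGCGC, TTTCGCGC and TTTGCCGC, of which TTTGGCGC and TTTCGCGC can overlap on opposite strands. At least 1 of these was in a window of 15 of the 39 members, or 38.5%, against 4.57% of 10071 tested genes with a window and 2.26% of all 32851 windows. The CCAAT box, CCAAT, was in windows of 25 members (64.1%, against 42.8% of those tested genes). A match is a description of letters, not evidence of binding. The median SD of log2 CPM over the 6 libraries was 0.35 for the 15 genes with a match and 0.27 for the 24 without. It was 0.33 for the 8 members whose promoter was not matched by symbol. These values were not compared by a test. Of 20 mitosis genes with a window, from a list described below, 0 had an E2F match and 18 (90%) had CCAAT. The sequences of 4 members with a match before the start are shown to let the motif be seen in a loader, a pair of ring subunits and a polymerase. Each is the 200 bases just before the start, 5′ to 3′ on the gene's strand, with matches in capitals.
Cdc6, chr11:98907951-98908150, plus strand: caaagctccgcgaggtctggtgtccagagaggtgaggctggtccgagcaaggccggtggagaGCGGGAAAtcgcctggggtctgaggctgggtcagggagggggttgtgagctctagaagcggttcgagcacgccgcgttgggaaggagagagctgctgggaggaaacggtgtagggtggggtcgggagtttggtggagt
Mcm5, chr8:75109309-75109508, plus strand: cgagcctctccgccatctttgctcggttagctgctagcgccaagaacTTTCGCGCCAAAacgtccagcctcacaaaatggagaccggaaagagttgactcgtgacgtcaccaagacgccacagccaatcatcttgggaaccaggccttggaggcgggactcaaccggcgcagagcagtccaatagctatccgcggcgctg
Mcm6, chr1:128359706-128359905, minus strand: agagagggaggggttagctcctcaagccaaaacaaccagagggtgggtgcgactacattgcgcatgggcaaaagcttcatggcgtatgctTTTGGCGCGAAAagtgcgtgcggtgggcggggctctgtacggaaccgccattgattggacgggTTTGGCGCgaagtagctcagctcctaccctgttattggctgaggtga
Pola1, chrX:93632156-93632355, minus strand: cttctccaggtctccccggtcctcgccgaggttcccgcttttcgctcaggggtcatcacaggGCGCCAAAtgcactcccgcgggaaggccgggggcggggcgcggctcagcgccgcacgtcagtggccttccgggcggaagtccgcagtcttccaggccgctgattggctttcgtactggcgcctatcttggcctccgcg

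In Mcm5 and Mcm6 a run of 12 capitals holds 2 matches on opposite strands that share bases, and Mcm6 has a further match nearer the start. Cdc6 and Pola1 have 1 match each, on the strand opposite to the gene. The same search found no match in the windows of Rrm2, Pcna or Tk1, which says only that these letters are not in those windows.

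Other genes of the pathway were taken from lists drawn up by function. Their counts stand beside 48.8% of all tested genes with a log2 fold change below 0 and 0% past edgeR's adjusted threshold. Among further subunits of the replication machinery, 13 of 19 had log2 fold changes below 0, with a median of -0.15, and 0 passed edgeR's adjusted threshold. Recql4, a helicase of replication initiation, measured 2.76, 8.18 and 6.89 CPM in model and 3.82, 3.77 and 4.63 CPM in DMDD liposome, and Chtf18, of an alternative clamp loader, 11.3, 23.8 and 22.8 CPM against 15.6, 13.1 and 13.9 CPM. Of 14 replication stress and fork repair genes, 11 were below 0 with a median of -0.17 and 0 passed. Fancd2, a crosslink repair gene, had a log2 fold change of -0.58 ± 0.24. Of the 14 E2F and RB family genes, 9 were below 0 with a median of -0.10 and 0 passed. The repressive family members E2f7 and E2f8 stood at -0.38 and -0.35. Of the other nucleotide supply enzymes, 6 of 14 were below 0, with a median of 0.03 and 0 past the threshold.

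Licensing kinases and cyclins were mixed, with 10 of 13 below 0 and 0 past the adjusted threshold. Ccnd2, a D-type cyclin that drives entry into the cycle, had the opposite order inside the model group only. It measured 72.5, 36.7 and 38.7 CPM in model and 91.2, 91.6 and 78.4 CPM in DMDD liposome. Its log2 fold change was 0.82 ± 0.26. Ccnd1, its relative, was at 898, 1281 and 1457 CPM against 888, 953 and 942 CPM (-0.39 ± 0.18). The groups did not overlap for Ccnd2, and model replicate 1 again lay nearest the treated libraries. Of the 7 CDK inhibitors, 4 were below 0 with a median of -0.04 and 0 passed. Cdkn2b was at 0.93 ± 0.47, from levels of 0.996 to 3.40 CPM. Cdkn1c was at -0.90 ± 0.48, from a model mean of 1.51 ± 0.59 CPM (SD, n = 3) against 0.802 ± 0.27 CPM, and Cdkn2d at -0.38 ± 0.29, with 19.1, 40.3 and 46.2 CPM in model against 26.6, 27.6 and 27.2 CPM.

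Mitosis genes, which act after S phase, had the same order with a wider spread. Their level, the mean of log2 CPM centred on each gene's mean, was -0.82, 0.54 and 0.60 in model replicates 1 to 3, against 0.01, -0.19 and -0.15 in the treated libraries. On the same scale the replication genes were at -0.41, 0.34 and 0.31 and at -0.05, -0.02 and -0.17. All 23 tested mitosis genes were below 0 (48.8% of all tested genes) with a median of -0.35, and 0 passed. The mitotic activator Cdc20 measured 40.3, 136 and 116 CPM against 67.9, 59.5 and 62.8 CPM. The difference in spread between the lists was not tested. At an unadjusted p under 0.05 edgeR found Ccnd2 and Fancd2 alone among the tested genes of these 7 lists (7.65% of all tested genes). DESeq2 called 0 of the genes in these lists. Calls in these lists appeared when model replicate 1 was left out and in no other setting tried. In that fit edgeR's adjusted threshold was passed by Ccnd2, with a log2 fold change of 1.21 (adjusted p = 0.030), and by the S phase cyclin Ccna2 at -0.68 (adjusted p = 0.049). It was also passed by 4 of the 23 mitosis genes, against 0.851% of all genes in that fit in either direction. These were Cdc20 at -0.99, the centromere histone Cenpa at -0.77, the mitotic cyclin Ccnb1 at -0.76 and the kinase Plk1 at -0.76. Their adjusted p from edgeR ran from 0.032 to 0.045. Ccna2, Cenpa, Ccnb1 and Plk1 are named because they were those calls, after their values were seen. These medians also moved with single libraries. Without model replicate 1 the median was -0.69 for mitosis, -0.38 for fork repair, -0.33 for the further subunits and -0.20 for the E2F and RB family, and without model replicate 3 it was -0.12, 0.02, -0.04 and -0.02 in the same order. Without model replicate 2 it was -0.23 for mitosis, -0.11 for fork repair, -0.06 for the further subunits and -0.10 for the licensing kinases and cyclins.

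Markers of tumor cells and of other cell types also differed between the libraries. The 14 epithelial tumor cell markers summed to 4457, 7364 and 6637 CPM in model replicates 1 to 3 and to 4689, 4053 and 5077 CPM in the DMDD liposome libraries, and 0 of them were at 0 in any library. Set against that sum, the replication genes came to 49.1%, 49.7% and 53.6% of it in model and to 59.8%, 69.4% and 50.7% in DMDD liposome. On this scale model replicate 1 was still the lowest library, but model replicate 2 and DMDD liposome replicate 3 were close to it. DMDD liposome replicates 1 and 2 were the highest, so the order of libraries differed from that of the CPM sums. The 12 macrophage and monocyte markers summed to 3390, 2687 and 2045 CPM in model and to 4468, 3601 and 3909 CPM in DMDD liposome. The 9 endothelial markers summed to 347, 179 and 203 CPM in model and to 287, 375 and 262 CPM in DMDD liposome, so that inside the model group their order was opposite to that of the replication genes. Of these markers 8 had log2 fold changes above 0, with a median of 0.43. The 11 neutrophil markers summed to 271, 207 and 227 CPM in model and to 147, 190 and 120 CPM in DMDD liposome. The smaller total count of model replicate 1 also moved with its lower levels. In DMDD liposome replicates 1 to 3 the totals were 13756836, 13419951 and 14580202 counts. There replicate 3 had the largest total and the lowest replication gene sum. The part of tumor cell share, of the shares of these other cells and of depth in the replication gene levels was not tested. The 10 skin keratinocyte markers summed to 247 CPM in model replicate 2 and to between 9.65 and 15.8 CPM elsewhere.

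**Figure D5:**
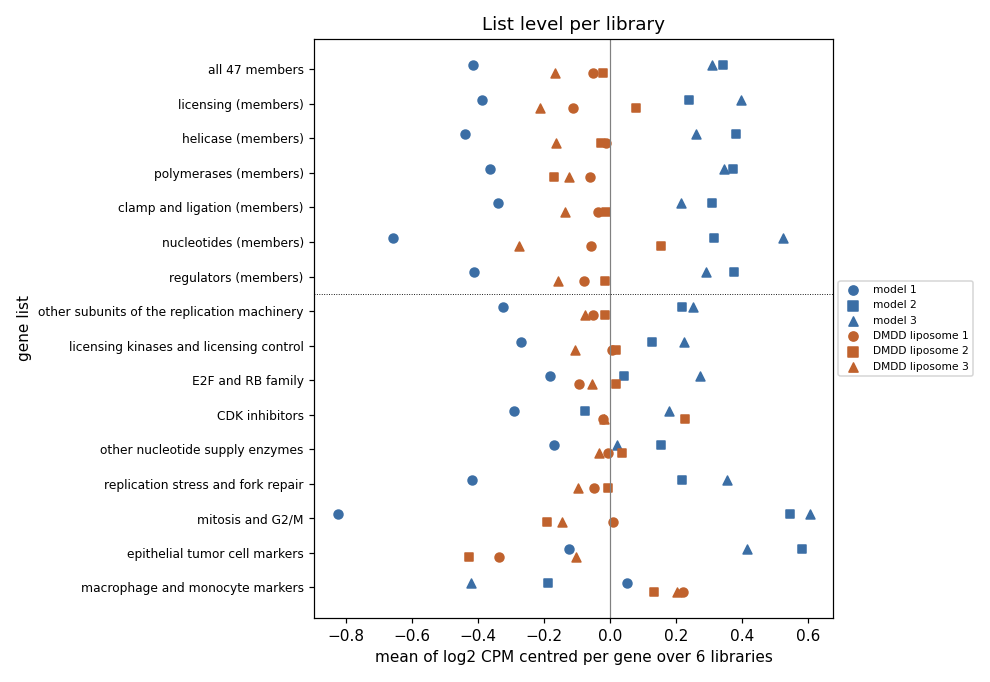
The x axis is the mean over a list of log2 CPM centred per gene, with 1 symbol per library, blue for model and orange for DMDD liposome. For all 47 members model replicate 1 lies at -0.41 and model replicates 2 and 3 at 0.34 and 0.31, on either side of the DMDD liposome libraries, and the epithelial markers below show model replicate 1 among the treated libraries.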

How the data were processed

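RNA sequencing of tumors from 3 model and 3 DMDD liposome samples was used, grouped by the sample descriptions. The members, gene lists and comparisons were chosen with earlier results of these data known. Read counts per gene were deposited by the authors, per the file headers, as whole numbers with a different total per library. The authors also deposited FPKM values, which equal the counts divided by column total and by a single length per gene (tolerance 0.01 base, 16763 genes), a signal column of counts divided by a size factor per library, and log2 fold changes, given as model over DMDD liposome, with p-values. DESeq2 and genome build mm9 are named in the submitters' processing notes. Aligner, counter, annotation and strandedness were not given in the sources used here. Exons of 16 members overlap another gene in GENCODE M21, by name, so reads there may be shared.

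The main test used edgeR 4.0.16 under R 4.3.3. The filter filterByExpr (minimum count 10, minimum total 15) left 12891 genes, TMM scaled the libraries, and a two-sided quasi-likelihood test with an adjusted p threshold of 0.05 was fitted without covariates. SEs came from the F statistic. Log2 CPM used a prior count of 2. At these depths 3 counts are 0.193 to 0.230 CPM. The scripts were tested on simulated data. Alternatives were DESeq2 size factors, total counts, no filter, DESeq2 1.42.0, a replicate block and leaving out each library. Members with values in every library were, per role group, the highest in FPKM and the 2 largest absolute log2 fold changes, Mcm2 to Mcm7, and the 5 smallest p. Orc2, Gins4 and Rpa2 were added after their values were seen, as exceptions to the common order of libraries. From other lists up to 3 genes with the largest absolute log2 fold change at a mean of at least 1 CPM were eligible. Promoters came from a RefSeq table of build GRCm38.p6, which is not the build of the files. The values of 1 eligible gene of the other lists are not reported here.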

Additional observations from a re-analysis of the deposited data

How the results depend on the processing

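The count of genes called by edgeR over all tested genes was 0 under DESeq2 size factors, total counts only, no filter on low counts and the replicate block, and ran from 0 to 112 when single libraries were left out, the 112 without model replicate 1. DESeq2's Wald test called 59 genes. The count of members called was 0 under every one of these settings. The median log2 fold change of the members was -0.19 with DESeq2 size factors, -0.16 with total counts, -0.20 without the filter, -0.19 with DESeq2, and from -0.39 to -0.06 when single libraries were left out. With the replicate block the median was -0.14, and 45 of 47 members stayed below 0. Same-numbered libraries had correlations of their deviations of 0.09, 0.11 and 0.12, and every library correlated best with its own number, but the labels do not say that a number marks a shared animal or day. With total counts 2 members moved above 0. Members whose groups did not overlap numbered 0 under the other scalings and 0 to 43 when single libraries were left out. The list level of each library, recomputed under both other scalings after the data were seen, moved by less than the spread between libraries. With 3 libraries a group and model replicate 1 far from the other model libraries in these genes, differences of the size seen here could not be separated from the spread.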
